A study of Mus musculus with 16 samples.

Results

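Mt1, Mt2, Mtf1 and Slc30a1 are 4 genes of the cellular zinc response, and they were followed across 8 groups of mouse C3H10T1/2 cells, a mesenchymal-stem-cell-type line, that express different histone H3 transgenes. The 4 genes were taken by symbol from the 20325 genes of the deposited table, and all 4 were among the 12670 genes whose mean value over the libraries was at least 10. They were chosen by symbol after expression values and fold changes of these same libraries had been seen, so their levels and fold changes are given as a description, without a test. The groups were cells overexpressing H3.3G34W, H3.3G34R, H3.3K27R, H3.3G34W;K27R, H3.3G34W;K36R, H3.1G34W, H3.1WT and H3.3WT, with 2 libraries of polyadenylated RNA in each. In these names the letters and numbers give the amino acid changes, at glycine 34 or at a lysine of the tail, in the replacement histone H3.3 or in the replication-coupled histone H3.1. All cells, the H3.3WT and H3.1WT cells included, were transduced with lentivirus for 2 days, selected in puromycin at 1.5 µg/ml for 4 days and carry their own H3 genes beside the transgene. The labels name neither clones nor separate cultures, so the spread between libraries may be technical, and the p-values given for other genes measure only that spread. The level of the transgenes themselves was not analysed here.

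Metallothioneins are small, cysteine-rich proteins that bind zinc, copper and cadmium, and Mt1 and Mt2 encode the pair that most mouse tissues make. MTF1, the product of Mtf1, is a transcription factor that senses free zinc and binds metal response elements in the promoters of Mt1, Mt2 and Slc30a1. Slc30a1 encodes ZnT1, the exporter that carries zinc out across the plasma membrane. In mice the metallothionein genes also respond to glucocorticoids, to interleukin 6 through STAT3 and to oxidative stress, and genes of those responses are described further on. The question addressed is how these genes differed between cells with mutant and wild-type histone transgenes.

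The promoters of 3 of the genes are shown because they hold the core of the metal response element, the sequence through which MTF1 acts. They come from RefSeq (GRCm38.p6), plus strand, and run from 250 bases before the annotated start up to the base before the first transcript start that GENCODE vM21 gives, if that lies earlier. Mt2 is at chr8:94172368-94172617, Mt1 at chr8:94178839-94179081 and Slc30a1 at chr1:191906531-191906766. Capitals mark matches to the core TGCACNC or TGCGCNC on either strand.
Mt2: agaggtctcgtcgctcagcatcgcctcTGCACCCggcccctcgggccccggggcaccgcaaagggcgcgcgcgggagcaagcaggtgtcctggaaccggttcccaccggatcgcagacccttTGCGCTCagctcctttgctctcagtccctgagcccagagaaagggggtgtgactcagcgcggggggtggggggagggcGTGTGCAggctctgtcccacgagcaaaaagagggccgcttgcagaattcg
Mt1: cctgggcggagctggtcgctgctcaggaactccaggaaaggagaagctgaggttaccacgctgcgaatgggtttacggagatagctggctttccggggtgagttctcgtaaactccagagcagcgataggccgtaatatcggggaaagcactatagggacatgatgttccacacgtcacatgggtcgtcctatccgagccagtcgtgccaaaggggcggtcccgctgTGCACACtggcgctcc
Slc30a1: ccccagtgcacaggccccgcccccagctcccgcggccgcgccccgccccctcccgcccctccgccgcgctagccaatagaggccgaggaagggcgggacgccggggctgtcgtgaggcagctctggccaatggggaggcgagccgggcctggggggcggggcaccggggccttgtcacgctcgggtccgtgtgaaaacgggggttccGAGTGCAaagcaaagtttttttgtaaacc
In Mt2 there were 3 cores, which begin 223, 128 and 50 bases before the annotated start, the last of them on the other strand. In Mt1 there was 1 core, 23 bases before the start, and in Slc30a1 there was 1 core on the other strand, 43 bases before it. The 250 bases before Mtf1, which lies on chromosome 4, held 0 matches and are not shown, because GENCODE gives a transcript start 445 bases before RefSeq's. Among all 32851 RefSeq mouse promoters, 21.41% held at least 1 core in the same window and 1.26% held at least 3. With the 50 bases after the start included, a window chosen after the first had been searched, there were 4 cores in Mt2, 3 in Mt1, 2 in Slc30a1 and 0 in Mtf1. Of all promoters, 25.7% held at least 1 core in that window and 1.97% held at least 3. GENCODE also starts Mt1 transcripts 122 and 152 bases after RefSeq's start and Mt2 transcripts 46 and 242 bases after it, so these windows do not cover what precedes those starts. A match is a description of the letters and not of MTF1 binding, and these bases are on another build than the deposited expression values, which were made on mm9.

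The values are RSEM estimated read counts, scaled by the authors with 1 constant per library, and are called deposited values. Libraries held 26019532 to 49118720 estimated reads, and 3 reads corresponded to 2.27 to 3.74 in the deposited unit. Libraries did not agree equally well within groups. Over 2385 genes with whole reads the H3.3WT libraries were within sampling noise of each other (chi-square p = 0.894), though not over all 11927 genes compared (chi-square p = 7.67e-64), and they were counted as 1 sample. The libraries of H3.3G34W, H3.1G34W and H3.1WT stood far apart from each other, with a chi-square per degree of freedom of 53.66, 46.13 and 36.83 over whole-read genes, against 1.19 to 1.43 in the 4 remaining groups. Both H3.3G34W libraries correlated more closely with H3.3G34R replicate 1 (Pearson r = 0.949 for replicate 1 and 0.978 for replicate 2, across genes, which are not independent replicates) than with each other (r = 0.938, the lowest within any group). H3.1G34W replicate 1 correlated more closely with H3.1WT replicate 1 (r = 0.992) than with its own replicate (r = 0.969). H3.1G34W replicate 2 was nearest to H3.3G34W;K36R replicate 2 (r = 0.975). The labels were used as given, and whether any of these libraries was exchanged with another was not tested, which limits every value of H3.3G34W, H3.1G34W and H3.1WT below. As a check of the labelled cell type, Vim, Col1a1, Col1a2 and Pdgfrb were abundant in all 16 libraries (lowest value 8404), while the leukocyte gene Ptprc was at 0 in 10 libraries, the epithelial gene Epcam in 13 and Krt18 in 11. Of the other markers of leukocytes and epithelium, Cd14 (99.5 to 331), Cd68 (12.5 to 55.8) and Cdh1 (19.96 to 299.95) were above 0 in all 16 libraries. So were Krt8 (0.97 to 27.36) and Krt19 (0.97 to 21.75). The endothelial genes Pecam1 and Cdh5 were at 0 in 2 and 5 libraries and reached 9.39 and 69.98. Of the other mesenchymal markers, Itgb1 ran from 31336 to 66480, Ly6a from 5383 to 32649 and Cd44 from 2133 to 10303. Pdgfra ran from 610 to 12777, Eng from 353 to 2367 and Thy1 from 167 to 1589, so these markers varied between libraries. Nt5e, a mesenchymal stem cell marker, was low, between 0.97 and 14.96. The summed values of 10 markers of other cell types were 315 to 424 in H3.3G34W, 313 to 325 in H3.3G34R, 502 to 527 in H3.3K27R, 294 to 295 in H3.3G34W;K27R, 301 to 318 in H3.3G34W;K36R, 237 to 317 in H3.1G34W, 334 to 434 in H3.1WT and 504 to 528 in H3.3WT cells. Their part in the results was not tested. In bulk RNA, fewer cells of a type and less RNA per cell cannot be told apart.

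Mt2 was the member that varied most, over a 47.3-fold range of deposited values among the 16 libraries. It was 44.1 and 120 in H3.3G34W cells, 290.0 and 286 in H3.3G34R cells, 501 and 546 in H3.3K27R cells, 259 and 257 in H3.3G34W;K27R cells, 1066 and 1120.3 in H3.3G34W;K36R cells, 1288 and 2087 in H3.1G34W cells, 1189 and 1846 in H3.1WT cells, and 1724 and 1856 in H3.3WT cells. The H3.3G34W libraries were the lowest of all 16, and the H3.3G34R, H3.3K27R and H3.3G34W;K27R libraries also lay below every library of the remaining 4 groups. The lowest Mt2 value came from 47 estimated reads, so counting was not near the limit of 3 reads. By group means the order was H3.3G34W (82.2 ± 53.9, SD, n = 2), H3.3G34W;K27R (258 ± 1.78), H3.3G34R (288 ± 2.59), H3.3K27R (523 ± 32.0), H3.3G34W;K36R (1093 ± 38.6), H3.1WT (1518 ± 464), H3.1G34W (1687 ± 565) and H3.3WT (1790.0, 2 libraries as 1 sample). Libraries of neighbouring groups did not overlap up to H3.1WT, while H3.1WT, H3.1G34W and H3.3WT overlapped with their neighbours in this order.

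**Figure D1:**
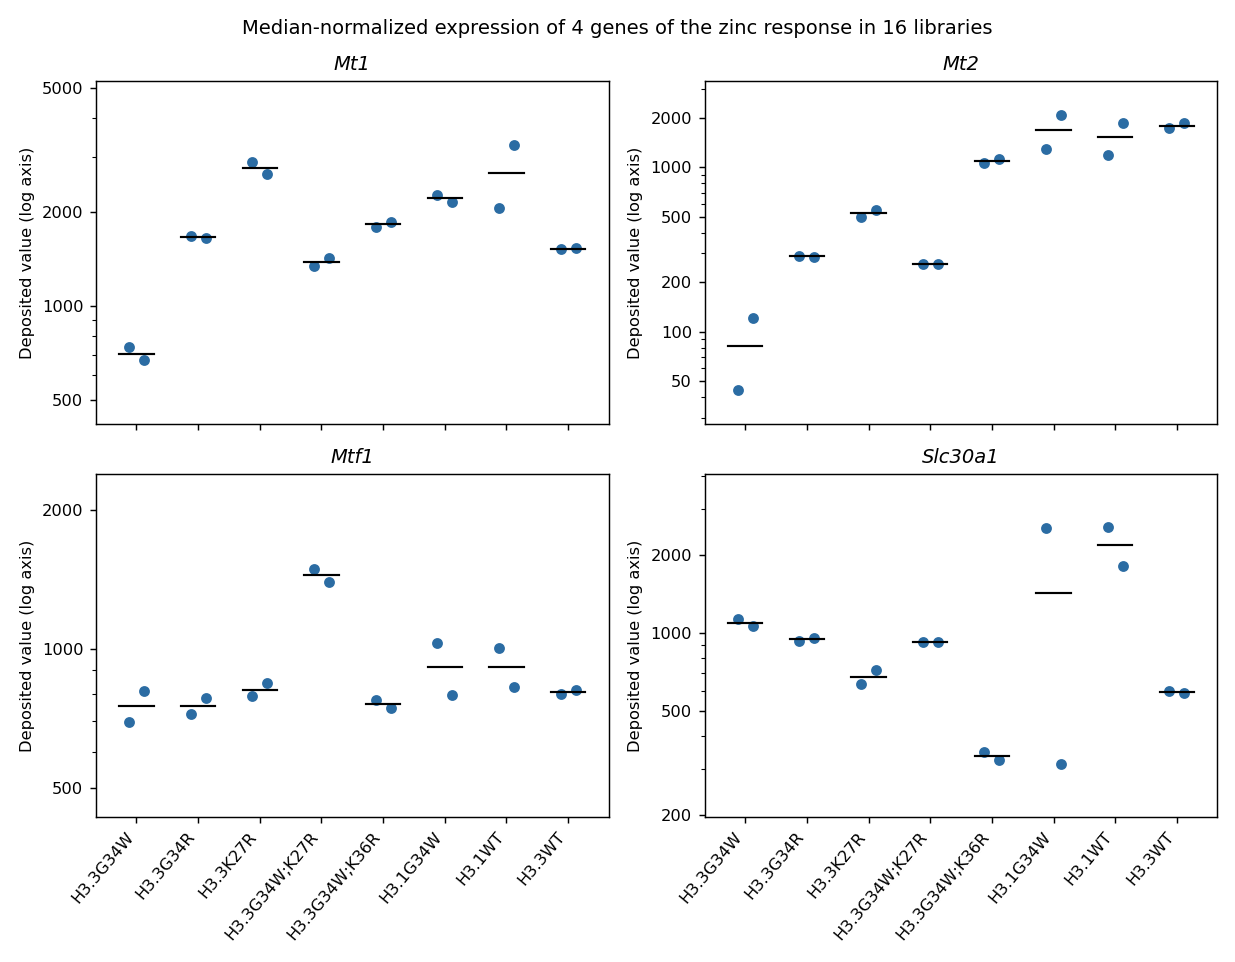
Deposited median-normalized values of Mt1, Mt2, Mtf1 and Slc30a1 (vertical log axes, one panel per gene) in the 8 transgene groups. Each point is 1 library and each short line the mean of the 2 libraries. Mt2 spans 44.1 to 2087, Mtf1 is highest in H3.3G34W;K27R, and the H3.1G34W libraries of Slc30a1 lie at 2532 and 314.

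Mt1 varied less, over a 4.88-fold range. It was 738 and 672 in H3.3G34W cells, 1680 and 1648 in H3.3G34R cells, 2900 and 2639 in H3.3K27R cells, 1345 and 1428 in H3.3G34W;K27R cells, 1790 and 1863 in H3.3G34W;K36R cells, 2261 and 2158 in H3.1G34W cells, 2058 and 3281 in H3.1WT cells, and 1518 and 1531 in H3.3WT cells. The H3.3G34W libraries were again the lowest, and H3.3G34W;K27R was the other group below H3.3WT. The order by mean was H3.3G34W (705 ± 46.1, SD, n = 2), H3.3G34W;K27R (1386 ± 58.1), H3.3WT (1525), H3.3G34R (1664 ± 22.4), H3.3G34W;K36R (1826 ± 51.7), H3.1G34W (2210 ± 72.6), H3.1WT (2669 ± 864) and H3.3K27R (2769 ± 185). Neighbours in that order were separate up to H3.1G34W, and H3.1WT overlapped with both H3.1G34W and H3.3K27R. Mt1 and Mt2 are similar in sequence, so RSEM could divide shared reads between them, and how far it did was not tested. Whole reads (within 0.01 read) made up 6 of 16 Mt1 values, 7 of 16 Mt2 values, 1 of 16 Mtf1 values and 5 of 16 Slc30a1 values, beside 41.45% to 47.66% of all values above 0 per library.

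Against H3.3WT, both metallothioneins were lower in H3.3G34W cells. The log2 fold change, on the log2(value + 1) scale, was -4.60 ± 0.49 (SE of the fit) for Mt2 and -1.11 ± 0.23 for Mt1. In H3.3G34R cells Mt2 was also lower, by a log2 fold change of -2.63 ± 0.49, while Mt1 was 0.13 ± 0.23. In H3.3K27R cells the metallothioneins lay on opposite sides of H3.3WT, with -1.77 ± 0.49 for Mt2 and 0.86 ± 0.23 for Mt1. These 3 comparisons share the H3.3WT libraries, so their likeness for Mt2 is not independent. The Mt2 value in H3.3G34W depended on the library, and was -3.88 without H3.3G34W replicate 1 and -5.31 without replicate 2.

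Adding a tail change to H3.3G34W went with higher metallothionein values. In H3.3G34W;K27R against H3.3G34W cells the log2 fold change was 1.81 ± 0.40 for Mt2 and 0.98 ± 0.18 for Mt1. In H3.3G34W;K36R against H3.3G34W cells it was 3.89 ± 0.40 for Mt2 and 1.37 ± 0.18 for Mt1. Without H3.3G34W replicate 1 the Mt2 values were 1.09 and 3.17, and without replicate 2 they were 2.52 and 4.60. Both comparisons share the H3.3G34W libraries. For the change of glycine 34 to tryptophan in H3.1 the log2 fold changes were 0.15 ± 0.40 for Mt2 and -0.23 ± 0.18 for Mt1 in H3.1G34W against H3.1WT cells, whose libraries overlapped. The sign of both depended on the library. The Mt1 value was -0.57 without H3.1WT replicate 1 and 0.10 without H3.1WT replicate 2. The Mt2 value was 0.49 without H3.1G34W replicate 1, -0.20 without H3.1G34W replicate 2, -0.17 without H3.1WT replicate 1 and 0.46 without H3.1WT replicate 2. H3.1WT against H3.3WT cells gave -0.27 ± 0.49 for Mt2 and 0.77 ± 0.23 for Mt1, and the Mt1 value was 1.10 without H3.1WT replicate 1 and 0.43 without replicate 2. The Mt2 value was 0.04 without H3.1WT replicate 1 and -0.59 without replicate 2.

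**Figure D2:**
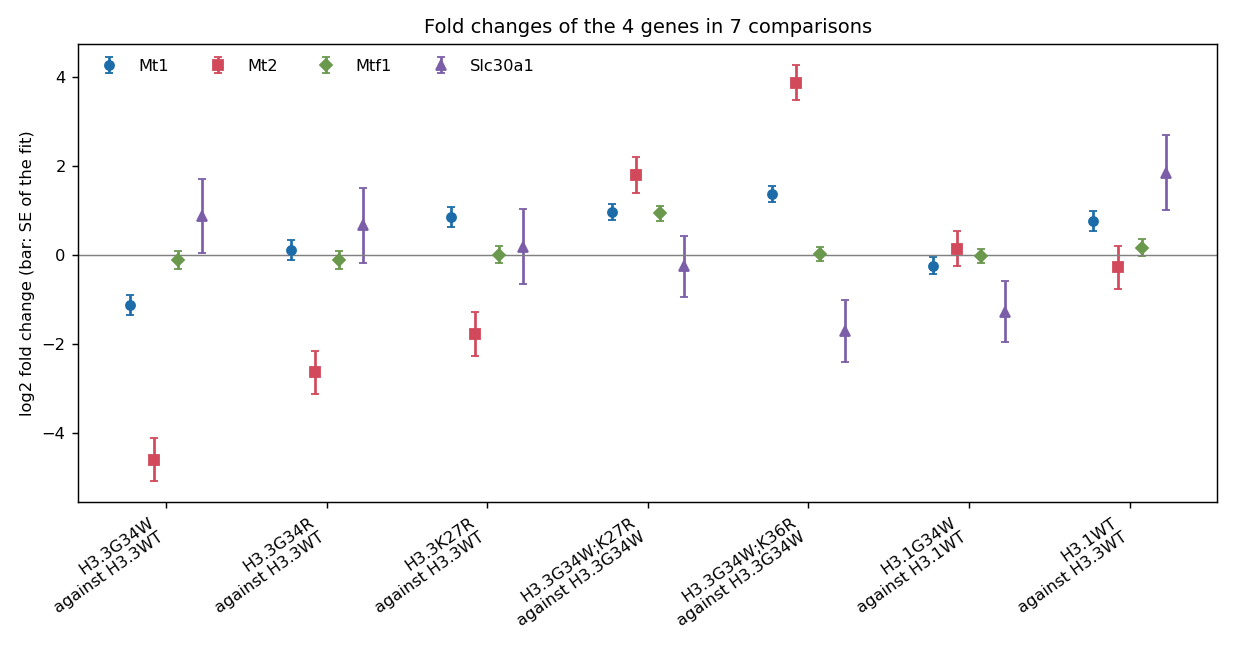
Log2 fold changes (vertical axis) of the 4 genes in 7 comparisons (horizontal axis). Bars are each gene's own SE from the fit of all 8 groups. Mt2 reaches -4.60 in H3.3G34W against H3.3WT and 3.89 in H3.3G34W;K36R against H3.3G34W, and the wide bars are those of Slc30a1.

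The balance between the metallothioneins differed between groups of cells. The deposited Mt2 value divided by the Mt1 value of the same library, a ratio of reads that is not adjusted for transcript length, was 0.06 and 0.18 in H3.3G34W, 0.17 and 0.17 in H3.3G34R, 0.17 and 0.21 in H3.3K27R, and 0.19 and 0.18 in H3.3G34W;K27R cells. It was 0.60 and 0.60 in H3.3G34W;K36R, 0.57 and 0.97 in H3.1G34W, 0.58 and 0.56 in H3.1WT, and 1.14 and 1.21 in H3.3WT cells. The first 4 groups thus lay at or below 0.21 and the other 4 at or above 0.56 in every library, and H3.3WT was the one group in which Mt2 had more reads than Mt1. The sum of the Mt1 and Mt2 values gave another order: 782 and 793 in H3.3G34W, 1969 and 1934 in H3.3G34R, 3400 and 3185 in H3.3K27R, 1605 and 1684 in H3.3G34W;K27R, 2855 and 2983 in H3.3G34W;K36R, 3549 and 4245 in H3.1G34W, 3248 and 5127 in H3.1WT, and 3242 and 3387 in H3.3WT cells. In H3.3K27R and H3.3WT cells the sums overlapped although their ratios did not. In H3.3G34W cells the sums of the libraries were within 782 and 793 although Mt2 differed 2.73-fold between them.

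**Figure D3:**
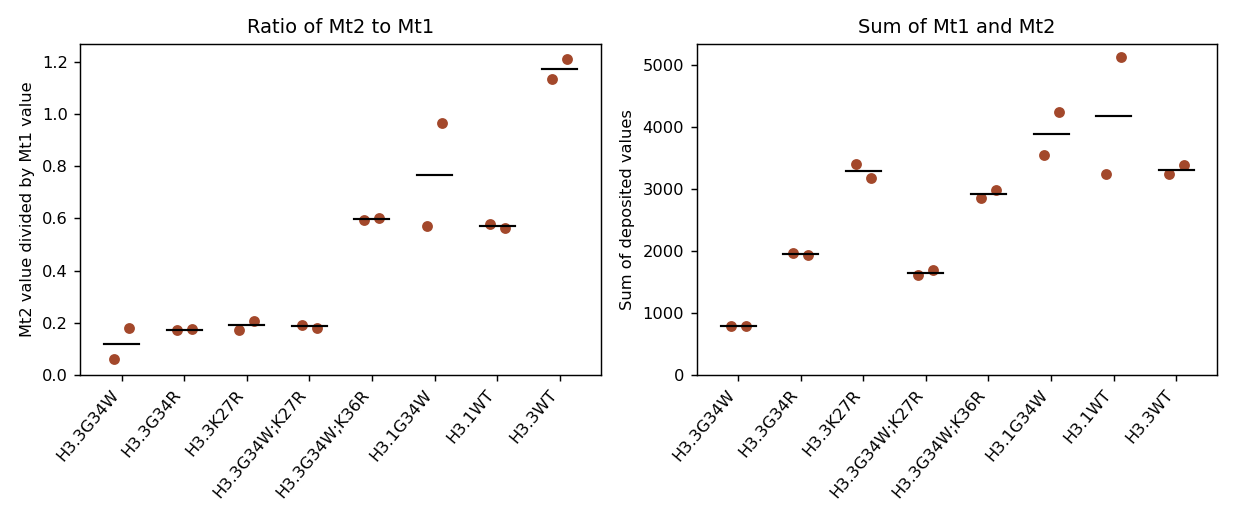
Left, the Mt2 value divided by the Mt1 value, and right, the sum of both deposited values, in the 8 groups. Points are libraries and lines are means of 2 libraries. The ratio lies between 0.06 and 0.21 in the first 4 groups and between 0.56 and 1.21 in the others, and the sum is lowest in H3.3G34W at 782 and 793.

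Mtf1, the gene of the zinc-sensing transcription factor, was nearly level except in 1 group. It was 695 and 810 in H3.3G34W cells, 723 and 784 in H3.3G34R cells, 791 and 843 in H3.3K27R cells, 1491 and 1394 in H3.3G34W;K27R cells, 777 and 746 in H3.3G34W;K36R cells, 1030.0 and 795 in H3.1G34W cells, 1004 and 829 in H3.1WT cells, and 801 and 817 in H3.3WT cells. The H3.3G34W;K27R libraries were the highest of all 16 and did not overlap with any other group. Every remaining group overlapped with a neighbour in the order of means. H3.3G34W;K27R against H3.3G34W cells gave a log2 fold change of 0.94 ± 0.16. In the other 6 comparisons Mtf1 stayed between -0.11 ± 0.20 (H3.3G34W against H3.3WT) and 0.17 ± 0.20 (H3.1WT against H3.3WT).

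Slc30a1, the zinc exporter gene, had another order of groups than the metallothioneins. It was 1129 and 1063 in H3.3G34W cells, 934 and 960 in H3.3G34R cells, 637 and 720 in H3.3K27R cells, 925 and 925 in H3.3G34W;K27R cells, 348 and 324 in H3.3G34W;K36R cells, 2532 and 314 in H3.1G34W cells, 2554 and 1808 in H3.1WT cells, and 598 and 587 in H3.3WT cells. The H3.1G34W libraries differed 8.06-fold, so that one of them lay with H3.1WT and the other at the bottom beside H3.3G34W;K36R. The order by mean was H3.3G34W;K36R (336 ± 17.5, SD, n = 2), H3.3WT (593), H3.3K27R (679 ± 59.1), H3.3G34W;K27R (925 ± 0.073), H3.3G34R (947 ± 18.3), H3.3G34W (1096 ± 46.8), H3.1G34W (1423 ± 1569) and H3.1WT (2181 ± 527). Neighbouring groups were separate up to H3.3G34W, and H3.1G34W overlapped with both its neighbours.

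In H3.3G34W cells, where the metallothioneins were lowest, Slc30a1 was higher than in H3.3WT cells in every library, with a log2 fold change of 0.89 ± 0.84. The corresponding values were 0.67 ± 0.84 in H3.3G34R and 0.19 ± 0.84 in H3.3K27R against H3.3WT cells. H3.3G34W;K36R against H3.3G34W cells gave -1.70 ± 0.69, opposite in sign to Mt1 and Mt2, and H3.3G34W;K27R against H3.3G34W gave -0.24 ± 0.69. H3.1WT against H3.3WT cells gave 1.86 ± 0.84. These SEs are set largely by the H3.1G34W pair, since the fit shares 1 estimate of spread: without H3.1G34W replicate 2 the SE was 0.19 for the comparisons against H3.3WT and 0.16 for those against H3.3G34W, and without replicate 1 it was 0.19 and 0.16. For H3.1G34W against H3.1WT the value was -1.27 ± 0.69, but -2.77 without H3.1G34W replicate 1 and 0.24 without replicate 2, so no direction can be given.

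Across the 16 libraries, the 4 genes were only partly alike. The correlation of log2(value + 1) was r = 0.711 (Spearman rho 0.591) between Mt1 and Mt2, and between -0.189 and 0.332 for the other 5 pairs of genes. These values describe libraries that come in 8 groups of 2, and no test was made. Among 11338 genes with a mean of at least 50, Mt2 ranked 304 in likeness to Mt1. The 5 genes most like Mt1 were Plekhf2 (r = 0.918), Grpel2, Nol12, Mrpl35 and Mrps10 (r = 0.873), of which Mrpl35 and Mrps10 encode mitochondrial ribosomal proteins. Those most like Mt2 were Tex9 (r = 0.947), Dapp1, Gch1, Rpl6 and Mkx (r = 0.905), where Gch1 encodes the first enzyme of tetrahydrobiopterin synthesis and Mkx a tendon transcription factor. All 5 were lowest in H3.3G34W replicate 1, the library that was also lowest for Mt2. Those most like Mtf1 were Rnf44 (r = 0.963), Tor1aip2, Pml, Ifit2 and Zbtb40 (r = 0.919), where Pml and Ifit2 are interferon-induced, and all 5 were highest in a H3.3G34W;K27R library. Those most like Slc30a1 were 2310003H01Rik (r = 0.957), Slc25a25, Atp1b3, Actr1a and Dbr1 (r = 0.877).

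Mt2 and Mt1 lie side by side on chromosome 8, between Mt3 and Nup93. Mt3 was at 0 in 15 of 16 libraries, and at 0.973 in the other, and Mt4 was at 0 in all 16, so the cells had reads of no other metallothionein gene of the cluster to compare. Of the 10 listed genes around the pair, 7 could be tested. With limma and Benjamini-Hochberg adjustment, 0 of 7 passed 0.05 in H3.3G34W, H3.3G34R and H3.3K27R against H3.3WT, in H3.3G34W;K27R against H3.3G34W and in H3.1G34W against H3.1WT, where 1.18%, 2.72%, 2.75%, 21.6% and 0% of all genes passed. The unadjusted p was under 0.05 for 0, 1, 0, 3 and 0 of the 7 neighbours, beside 1678, 1894, 1743, 4280 and 2015 of all 12670 genes. Gnao1, which encodes a G protein subunit, rose in H3.3G34W;K36R against H3.3G34W cells (log2 fold change 0.68 ± 0.19, limma adjusted p = 0.0244), 1 call among 7 where 30.6% of all genes passed. In H3.1WT against H3.3WT cells Gnao1 and Nudt21, an mRNA cleavage factor gene, rose (0.69 ± 0.24 and 0.57 ± 0.20) and Bbs2, a ciliary gene, fell (-1.15 ± 0.39, limma adjusted p = 0.0454), 3 calls among 7 where 33.4% of all genes passed. In the 7 comparisons the neighbours' log2 fold changes ran from -1.15 to 0.69.

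**Figure D4:**
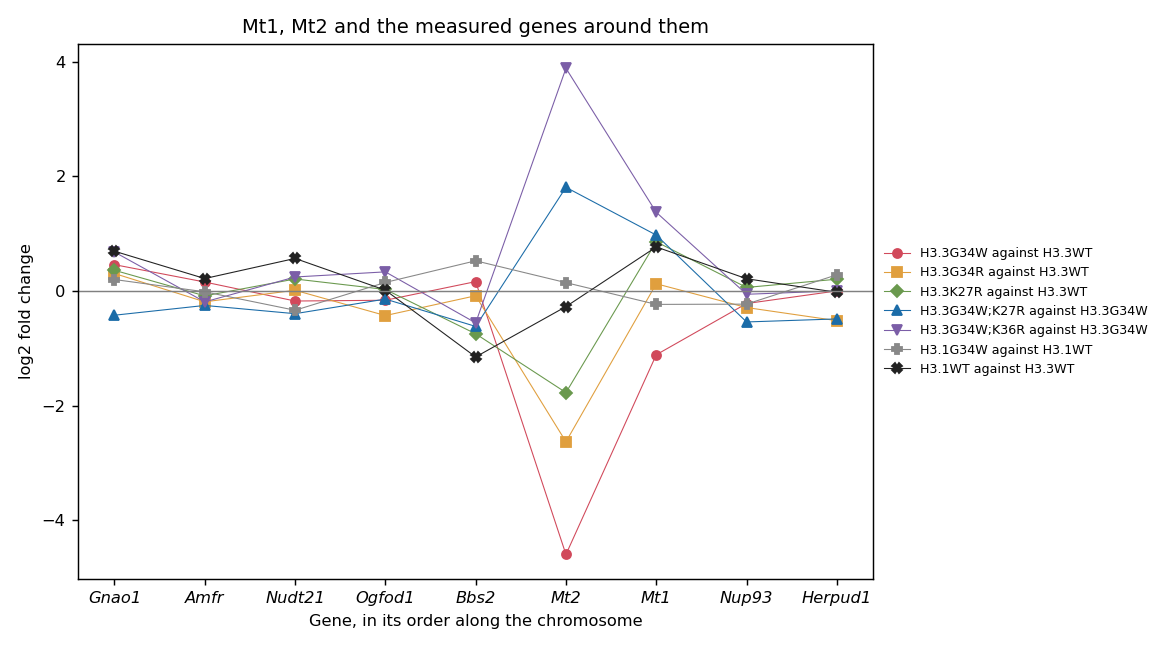
Log2 fold changes (vertical axis) of Mt2, Mt1 and the 7 tested genes around them, placed in chromosomal order but not to scale (horizontal axis), with 1 line per comparison. The neighbours stay between -1.15 and 0.69, whereas Mt2 runs from -4.60 to 3.89.

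The other listed genes were zinc transporters, MTF1 targets, genes of the NRF2, glucocorticoid, interleukin 6 and heat shock responses, genes of copper and iron handling, other metallothioneins and the chromosomal neighbours above. They were 106 genes in all besides the 4 members, of which 91 were tested. In H3.3G34W against H3.3WT cells 0 of the 91 passed limma's adjusted 0.05, where 1.18% of all 12670 genes did, and 13 had an unadjusted p under 0.05, as did 1678 of all 12670 genes. The median log2 fold change was -0.12 for the listed genes and 0.00 for all genes. The nearest to the threshold was Slc11a2, an iron and metal ion transporter gene, at 1681 and 2453 in H3.3G34W and 3928 and 3993 in H3.3WT cells (log2 fold change -0.96 ± 0.20, limma adjusted p = 0.0508). The small heat shock protein gene Hspb1 (-3.29 ± 0.73, limma adjusted p = 0.0677) and Lcn2, a STAT3 and NF-kB target that binds iron carriers (-5.31 ± 1.23, limma adjusted p = 0.0761), came next. Zinc exporters and importers had median changes of -0.01 (5 genes) and 0.03 (9 genes), and the 8 MTF1 targets of -0.15. The count was higher without either one of the H3.3G34W, H3.1G34W or H3.1WT libraries, and without H3.3WT replicate 1. The share of all genes called in these and the later left-out runs is not given here.

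In H3.3G34R against H3.3WT cells 1 of the 91 genes was called, against a background of 2.72% of all genes, and 19 had an unadjusted p under 0.05, as did 1894 of all 12670 genes. It was Slc11a2, at 1712 and 1731 in H3.3G34R and 3928 and 3993 in H3.3WT cells (log2 fold change -1.20 ± 0.20, limma adjusted p = 0.0123). The count was lower without either H3.3G34R library, and higher without either one of the H3.3G34W, H3.1G34W or H3.1WT libraries. In H3.3K27R against H3.3WT cells 3 of 91 were called, all lower, against a background of 2.75%, and 16 had an unadjusted p under 0.05, as did 1743 of all 12670 genes. They were Slc11a2 (-0.92 ± 0.20), the heat shock gene Hspa1a (-2.38 ± 0.41) and Lcn2, which was 14.9 and 8.72 in H3.3K27R and 3725 and 3810 in H3.3WT cells (-8.24 ± 1.23, limma adjusted p = 0.00614). The MTF1 target Pgf, a placental growth factor gene, was 124 and 126 in H3.3K27R and 22.3 and 32.0 in H3.3WT cells (2.17 ± 0.54, limma adjusted p = 0.067). None of the 14 tested zinc transporters was called in these 3 comparisons against H3.3WT. The H3.3K27R count was lower without H3.3K27R replicate 2, and higher without either one of the H3.3G34W or H3.1G34W libraries.

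H3.3G34W;K27R against H3.3G34W cells, the comparison in which Mt1, Mt2 and Mtf1 were all higher, had 27 of 91 listed genes called, 21 higher and 6 lower, where 21.6% of all genes were called. Among zinc transporters Slc39a3, an importer of the cell surface, rose to 2715 and 2738 in H3.3G34W;K27R, against 1547 and 1523 in H3.3G34W cells (log2 fold change 0.83 ± 0.19, limma adjusted p = 0.0122), and the other 13 were not called. The MTF1 targets moved both ways. Gclc, the catalytic subunit of glutathione synthesis, rose (1.39 ± 0.19), and 2700094K13Rik (-1.52 ± 0.30), Ndrg1 (-1.47 ± 0.36) and Csrp1 (-1.19 ± 0.36) fell, with a median of -0.52 over 8 tested targets. Of 14 genes of the NRF2 oxidative stress response 7 rose, led by the thioredoxin reductase gene Txnrd1 (1.84 ± 0.18), Srxn1 (1.73 ± 0.15), Gclc and the heme oxygenase gene Hmox1 (1.26 ± 0.29), while Nqo1 (-2.32 ± 0.14) and Slc7a11 (-0.84 ± 0.17) fell. Of 11 glucocorticoid response genes 3 rose, which were Sgk1 (2.60 ± 0.62), Errfi1 (2.58 ± 0.51) and Klf9 (0.97 ± 0.26). Of 13 genes of the interleukin 6 and STAT3 response 4 rose, which were Il6 (1.61 ± 0.42), Lifr, Osmr and Socs3, and of 11 heat shock genes 5 rose, led by Hspe1 (1.35 ± 0.24). Of 17 copper and iron genes, the ferritin gene Ftl1 rose and Aco1 fell. The median over the 91 genes was 0.03, beside -0.02 for all genes. The count of 27 rose without H3.3G34W replicate 1 and fell without either H3.3G34W;K27R library.

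In H3.3G34W;K36R against H3.3G34W cells 23 of the 91 were called, 13 higher and 10 lower, where 30.6% of all genes were called. The zinc exporter gene Slc30a4 rose to 6216 and 6292 in H3.3G34W;K36R, against 3225 and 3782 in H3.3G34W cells (log2 fold change 0.84 ± 0.17, limma adjusted p = 0.00554). The importers Slc39a3 (-1.06 ± 0.19), Slc39a7 (-0.52 ± 0.16) and Slc39a11 (-0.48 ± 0.16) fell, and the median over 9 importers was -0.37. Of the MTF1 targets the iron exporter gene Slc40a1 (2.58 ± 0.64) and the selenoprotein gene Sepw1 (0.84 ± 0.28) rose. Of the 17 genes of the copper and iron list 4 fell, among them Slc31a2 (-1.35 ± 0.18) and the zinc and copper enzyme gene Sod1 (-0.87 ± 0.22), and Slc40a1 and Ftl1 rose. Among NRF2 genes Sqstm1, Txnrd1 and Hmox1 rose and Nqo1 (-1.61 ± 0.14) and Keap1 (-0.50 ± 0.11) fell. Sgk1 was the glucocorticoid gene called (2.11 ± 0.62), and Osmr and Socs3 those of the interleukin 6 list, all higher. The heat shock genes Hsp90aa1 and Hspd1 rose and Hspa1b (-1.02 ± 0.13) fell. The median over the 91 genes was 0.11. The count of 23 rose without H3.3G34W replicate 2 and fell without either H3.3G34W;K36R library.

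**Figure D5:**
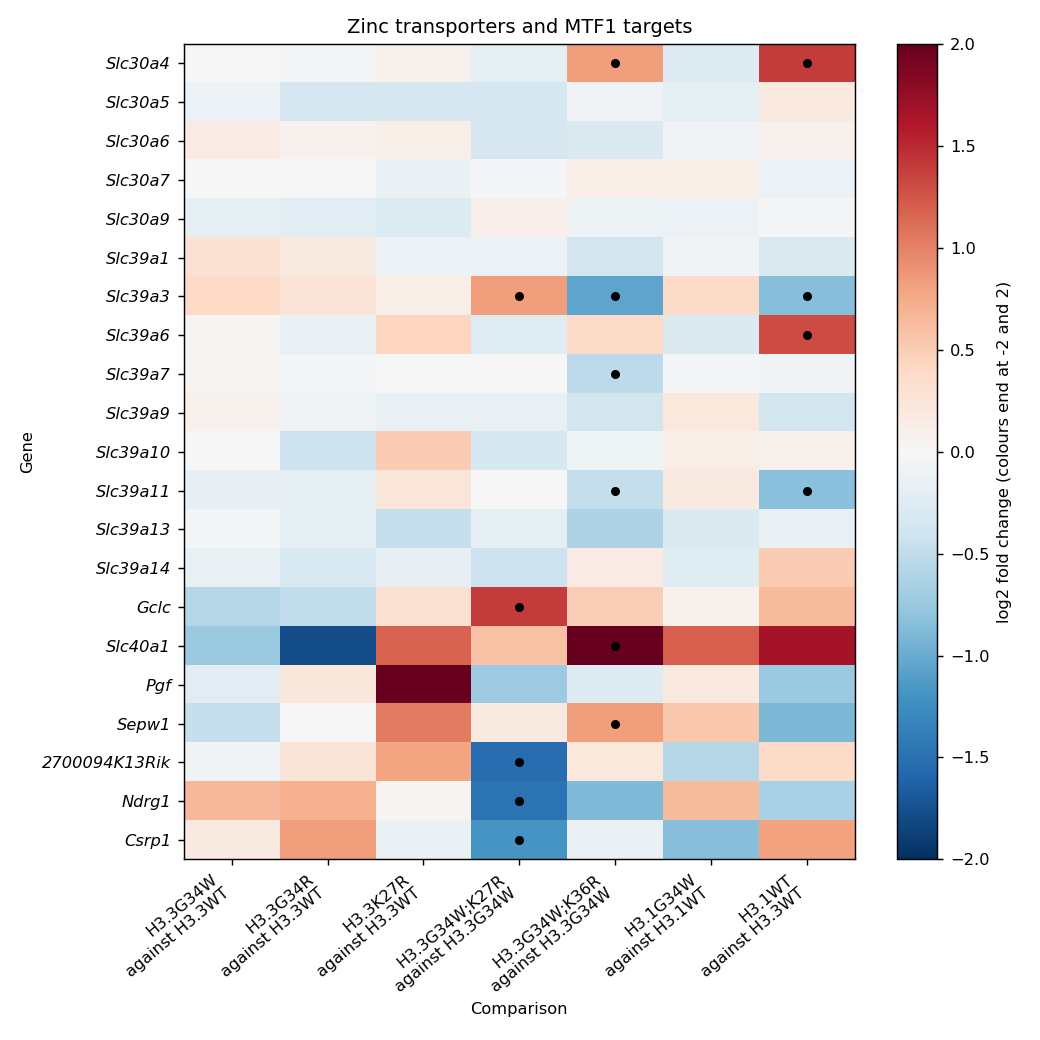
Log2 fold changes of the tested zinc exporters (Slc30a genes), zinc importers (Slc39a genes) and MTF1 targets (rows) in 7 comparisons (columns), with red for higher and blue for lower and colours that end at -2 and 2. Black dots mark genes that passed a limma adjusted p of 0.05. None is marked in the 3 comparisons with H3.3WT of single H3.3 changes, or in H3.1G34W against H3.1WT.

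H3.1G34W against H3.1WT cells had 0 of 91 listed genes called, with 9 at an unadjusted p under 0.05, where 0% of all genes were called and 2015 had an unadjusted p under 0.05. The count was higher without H3.1G34W replicate 1 or without H3.1WT replicate 1, which were the libraries of these groups most like each other. In H3.1WT against H3.3WT cells, where Slc30a1 was 2554 and 1808 against 598 and 587, 38 of 91 were called, 21 higher and 17 lower, where 33.4% of all genes were called. The exporter gene Slc30a4 rose to 11243 and 7452 in H3.1WT, against 3459 and 3515 in H3.3WT cells (log2 fold change 1.39 ± 0.21, limma adjusted p = 0.00109). The importer Slc39a6 rose (1.31 ± 0.32), and Slc39a3 (-0.86 ± 0.24) and Slc39a11 (-0.83 ± 0.19) fell. None of the 8 MTF1 targets was called, and 2 had an unadjusted p under 0.05. Of 13 genes of the interleukin 6 and STAT3 response 8 fell, led by Lcn2 (-10.49 ± 1.23), Bcl3 (-5.89 ± 0.91), the haptoglobin gene Hp (-4.53 ± 1.23) and Cebpd (-2.21 ± 0.37), with a median of -1.34, and Stat3 itself was among them (-1.79 ± 0.29). Lcn2 was 0 and 5.86 in H3.1WT cells, so its fitted value depends on the pseudocount. Of 14 NRF2 genes 8 rose, led by Txnrd1 (1.55 ± 0.22), Hmox1 (1.17 ± 0.36), Sqstm1 and Gsr, and Nqo1 fell (-1.33 ± 0.18). Among glucocorticoid genes Sgk1 (4.40 ± 0.76) and Errfi1 rose and Cebpd fell. The heat shock genes Hsp90aa1, Hspd1 and Bag3 rose and Hspb1 and Hspa1b fell, and 4 copper and iron genes, led by the transferrin receptor gene Tfrc (1.99 ± 0.52), rose while 3 fell. The median over the 91 genes was 0.01, beside -0.02 for all genes.

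The promoters of the listed zinc genes were searched in the same 250-base window as the members. A core was present in 5 of 8 zinc exporters, 4 of 11 importers and 1 of 5 MTF1 targets that had a promoter in the RefSeq table, beside 23.76% of all 27025 genes in it.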

How the data were processed

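RNA was extracted with Trizol and polyadenylated RNA was sequenced, per the labels' protocols. The deposited signal values are gene counts that the authors estimated with RSEM 1.2.4 on mm9, per the submitters' processing notes, and median-normalized, as the name of the deposited table says. Each library's values were multiples of a hundredth of 1 constant, which gives the depth, but only 41.45% to 47.66% of values were whole reads, so no count test was made. The aligner and annotation are not given in the sources used here. A second table repeats the values of 180 genes and holds none of the 4 genes. Of the other listed genes it holds Lcn2 alone.

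The test was limma 3.58.1 (R 4.3.3), two-sided, with a trended and robust variance prior, applied to log2(value + 1) of 12670 genes that averaged at least 10, in 1 fit of all 8 groups, with Benjamini-Hochberg adjustment over all of them and a threshold of 0.05. The H3.3WT libraries were averaged to 1 sample. Their columns were matched to the label by elimination of the other groups' names. The 4 genes and all lists were chosen with earlier results of these data known. The genes named from a list in a comparison are the called genes, up to 4 by size of change in each direction, and up to 2 nearest to the threshold. Stat3 falls outside this rule and was named after its value was seen. Promoters and their starts come from RefSeq and GENCODE tables on GRCm38. Alternatives were 2 other pseudocounts, 2 filters, 2 scalings, another variance prior, fits restricted to the pair of groups compared, a replicate block, 2 treatments of close pairs and each library left out. Replicate numbers did not pair libraries: their differences correlated at -0.265 to 0.0598 over 28 pairs of groups. The floor of 3 reads covers counting error only.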

Additional observations from a re-analysis of the deposited data

Results flagged for a closer look

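The lysine 27 change went with opposite Mt2 differences in the presence and absence of the glycine 34 change, and was flagged because every library moved in the direction of its group. Mt2 was 259 and 257 in H3.3G34W;K27R against 44.1 and 120 in H3.3G34W cells (log2 fold change 1.81 ± 0.40), and 501 and 546 in H3.3K27R against 1724 and 1856 in H3.3WT cells (-1.77 ± 0.49). These log2 fold changes differ by 3.58, and that difference was not tested.

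Slc30a1 was flagged in the same way, with 925 and 925 in H3.3G34W;K27R against 1129 and 1063 in H3.3G34W cells (-0.24 ± 0.69) and 637 and 720 in H3.3K27R against 598 and 587 in H3.3WT cells (0.19 ± 0.84). The difference is -0.44 and was not tested. These SEs were 0.16 and 0.19 without either one of the H3.1G34W libraries, which enter neither fold change but share the estimate of spread.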

How the results depend on the processing

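Of 756 alternative values of the 4 genes' log2 fold changes 742 moved by less than the gene's residual SD. That SD ran from 0.15 for Mtf1 to 0.82 for Slc30a1 on the log2 scale. Many of these runs cannot change a fold change, so 742 does not measure stability. They left out a library of a group not compared, changed the filter or the variance prior, or added the replicate block. Of 189 alternative counts of called listed genes 144 stayed within 1.5 times the count reported. The other 14 values of the 4 genes came from leaving out a library. Their ranges were -5.31 to -3.88 for Mt2 in H3.3G34W against H3.3WT, 1.09 to 2.52 and 3.17 to 4.60 for Mt2 in H3.3G34W;K27R and H3.3G34W;K36R against H3.3G34W, and, in H3.1G34W against H3.1WT, -0.57 to 0.10 for Mt1, -0.20 to 0.18 for Mtf1 and -2.77 to 0.24 for Slc30a1. For Mt1 in H3.1WT against H3.3WT the range was 0.43 to 1.10.

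For the counts in this and the next paragraph, the share of all genes called in the same run is not given. The ranges of called listed genes given next include left-out libraries. They exclude the fits of compared groups alone and the treatments of close pairs. Counts ran from 0 to 16 in H3.3G34W, 0 to 11 in H3.3G34R and 0 to 11 in H3.3K27R against H3.3WT. Against H3.3G34W they ran from 10 to 42 in H3.3G34W;K27R and 6 to 36 in H3.3G34W;K36R. They ran from 0 to 16 in H3.1G34W against H3.1WT and 30 to 47 in H3.1WT against H3.3WT. Some counts of the excluded runs, given below, lay outside these ranges. With a pseudocount of 5 the counts were 3 in H3.3G34W and 3 in H3.3G34R against H3.3WT. Without a filter the H3.3G34R count was 2, and with quantile normalization the H3.3G34W count was 1. Quantile normalization also changed the split in H3.1WT against H3.3WT to 14 higher and 18 lower, beside 21 and 17. Fitted alone, the compared groups gave 64 (H3.3G34R), 66 (H3.3K27R), 8 (H3.3G34W;K27R), 9 (H3.3G34W;K36R) and 13 (H3.1WT). Without the share of all genes called in the same fits, these counts do not show whether listed genes differed from all genes. With the H3.3WT libraries counted separately there were 6, 8 and 12 in H3.3G34W, H3.3G34R and H3.3K27R. With each close pair averaged to 1 sample there were fewer in H3.3G34R, H3.3K27R, H3.3G34W;K27R, H3.3G34W;K36R and H3.1WT, in a fit of fewer samples. Otherwise the cause was not tested.

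With a replicate block the counts were 0, 1, 3, 25, 21, 0 and 36 in the order of the comparisons above. The block is balanced within every group, so it cannot change a fold change or its sign. The fold changes of Mt2 against H3.3WT in the 3 single H3.3 changes kept their sign in every alternative run. All Mt2 values of those groups lay below both H3.3WT values, so leaving out a library could not change that sign.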
